A study of Mus musculus with 60 samples.

Results

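Whole blood was compared between 12 of the 60 mice of the series, chosen by their labelled treatment, day and animal number. They were 6 mice given BIO 300 at 200 mg/kg and bled on Day 1 (mice 43 to 48), and 6 other mice given the same dose and bled on Day 0 (mice 19 to 24). The last of the doses lay 48 h back on Day 1 and 24 h back on Day 0. All were male CD2F1 mice bought at 5 to 6 weeks of age and housed 3 per cage, and none of the 12 was irradiated. BIO 300 is a powder of synthetic genistein, and both groups received it by oral gavage every 12 h for 6 days, 12 doses in all, so that the labels separate them only by the time since the last dose. Each mouse was bled once, 1 mL from the vena cava into PAXgene RNA tubes, and a Day 1 value is therefore a difference between mice and not a change within a mouse. The labels name no batch of extraction or sequencing, and such a batch and the day cannot be told apart. Vehicle-treated mice (6 on Day 0 and 6 on Day 1) and mice given 100 mg/kg (6 and 6), from the same 2 times, served as references and share no mouse with the 12. These reference mice were also male CD2F1 mice bought at the same age and dosed on the same schedule, and none of them was irradiated.

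Genistein is a soy isoflavone that binds estrogen receptor beta in preference to estrogen receptor alpha. RNA of whole blood comes from leukocytes, which are nucleated, and from cells without a nucleus: reticulocytes, the young red cells that still hold transcripts for haemoglobin and haem synthesis, and platelets, which carry transcripts made in the megakaryocyte. Nuclear RNAs such as spliceosomal, nucleolar and 7SK RNA are made and kept in nucleated cells. In bulk blood, fewer cells of a type and less RNA per cell cannot be told apart.

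Counts per mouse summed to between 22348126 and 28505535 on Day 0 and between 18332440 and 38337851 on Day 1. When every library was thinned in expectation to 18332440 counts, 22600 ± 717 genes (SD, n = 6) had at least 1 count on Day 0 and 17852 ± 693 (n = 6) on Day 1, and the groups did not overlap (exact permutation test, 2-sided p = 0.00216, the smallest that 6 against 6 mice can give). The corresponding means were 23364 genes in the 5 vehicle-treated Day 0 mice that were deep enough and 23862 genes in 6 on Day 1. Levels are CPM after TMM scaling, which brings the libraries to a common effective size, and TMM factors ranged from 0.941 to 1.82 on Day 0 and from 0.565 to 0.892 on Day 1. Dividing by total counts in place of TMM moved the median log2 fold change of all genes from -0.31 to -1.25, so that directions below are relative to the TMM scale and are given with the total-count value where it turns.

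From Day 0 to Day 1 at 200 mg/kg, edgeR's quasi-likelihood test called 8357 of 22573 genes (37%) as differentially expressed. A call needed an adjusted p (Benjamini-Hochberg) below 0.05 together with a log2 fold change beyond 1 in either direction. Of these, 2885 genes (12.8% of those tested) were higher on Day 1 and 5472 (24.2%) were lower. With vehicle, the same test between the same times called 0 of 24375 genes (0%), while the unadjusted p was below 0.05 for 3007. DESeq2's Wald test called 37, of which 36 were lower on Day 1 and the single higher one was Snord17. The difference between the 200 mg/kg change and the vehicle change passed the test for 9437 of 25702 genes (36.7%), 3372 of them more positive and 6065 more negative at 200 mg/kg. Every Day 1 mouse lay above every Day 0 mouse for 2708 genes (12% of those tested) and below every one for 4518 (20%). Of the 166 called genes named here, none changed direction when total counts replaced TMM, but 72, all higher on Day 1, were no longer called. Over all genes, total counts gave 625 higher and 11401 lower, and the total-count calls of a list below are to be read against these.

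**Figure D1:**
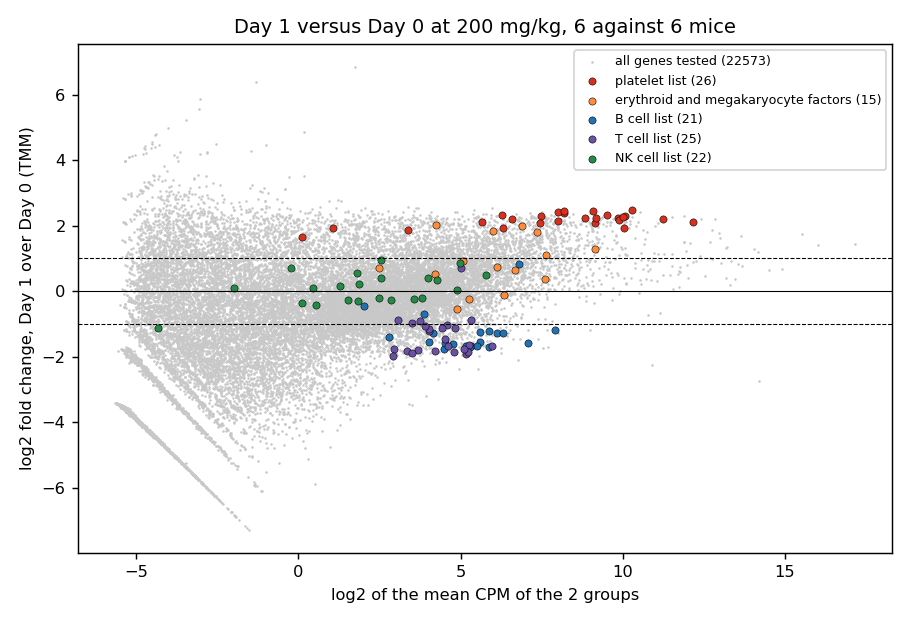
Each point is 1 of 22573 genes, with the log2 of its mean CPM over both groups on the x axis and its log2 fold change, Day 1 over Day 0 at 200 mg/kg on the TMM scale, on the y axis; dashed lines mark an absolute log2 fold change of 1. The platelet list (red) sits above the upper line, the B cell (blue) and T cell (purple) lists mostly below the lower one, and the NK cell list (green) around 0.

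Of the 44 gene lists examined, the platelet list had the highest share of genes that rose. Of its 26 genes, 25 rose and none fell, against 12.8% and 24.2% of all genes, with a median log2 fold change of 2.22 against -0.31 over all genes. On total counts the median was 1.29 and 21 of 26 still passed. Taken as a share of each mouse's counts, the list took 0.656% to 1.04% (median 0.857%) on Day 0 and 1.56% to 2.55% (median 2.09%) on Day 1, with no overlap (exact permutation test, adjusted p = 0.00433 over 6 gene classes). Vehicle-treated mice had mean shares of 0.801% ± 0.178 on Day 0 and 0.743% ± 0.212 on Day 1 (SD, n = 6 each). The summed CPM of the list lay between 4196 and 11014 on Day 0, the highest in mouse 22, and between 20400 and 34305 on Day 1.

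**Figure D2:**
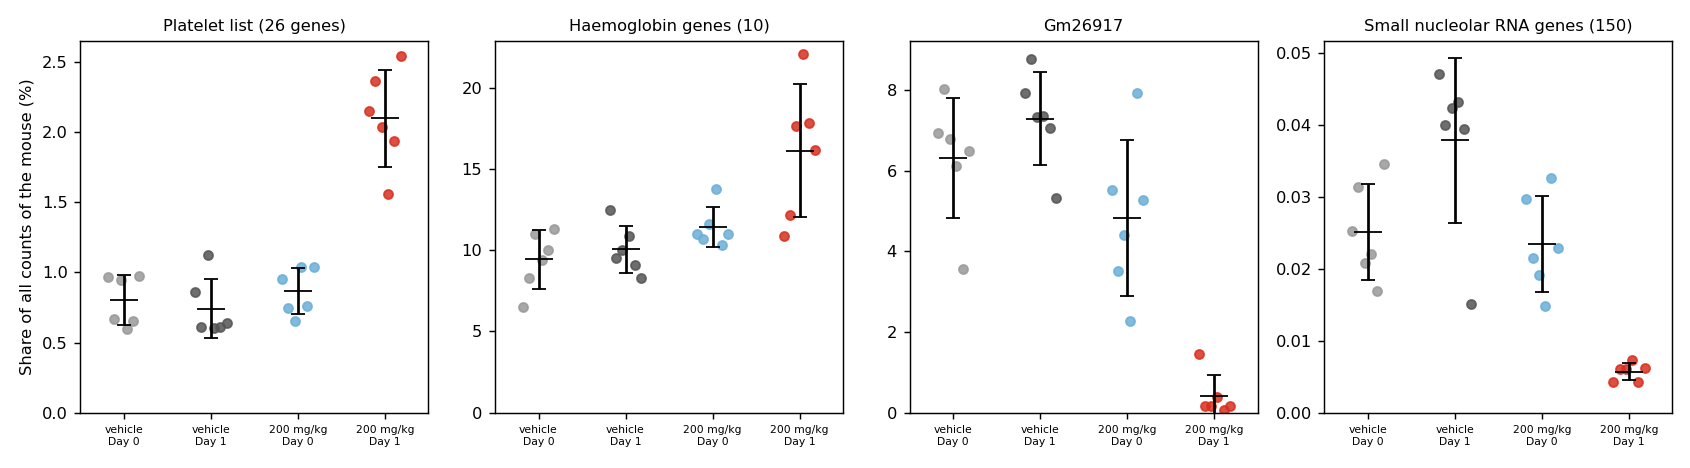
Share of all counts of a mouse (%, y axis) taken by the platelet list, the haemoglobin genes, Gm26917 and the small nucleolar RNA genes, with 1 point per mouse, in 6 mice of each group, and the mean ± SD drawn in black. At 200 mg/kg the platelet share was 1.56% to 2.55% on Day 1, above all 18 other mice drawn, while the Gm26917 and small nucleolar shares were at their lowest there.

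The 2 subunits of the platelet fibrinogen receptor rose together. Itga2b, on chromosome 11, ranged from 245 to 675 CPM (median 349.6) on Day 0 and from 1388 to 2664 CPM (median 2257) on Day 1, a log2 fold change of 2.46 ± 0.27 (SE; adjusted p = 8.56e-06). Itgb3 ranged from 234 to 574 CPM (median 325) and from 1057 to 2270 CPM (median 1757), respectively, a log2 fold change of 2.25 ± 0.26. The groups did not overlap for either gene.

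Among the collagen and von Willebrand factor receptors, Gp6 (log2 fold change 2.14 ± 0.24) and Gp5 (2.41 ± 0.24) rose. Gp6 lay between 56.9 and 171 CPM on Day 0 and between 296 and 492 CPM on Day 1, and Gp5 between 53.2 and 138 CPM and between 291 and 519 CPM. Vwf itself, the adhesive protein that tethers platelets to the vessel wall, went from a median of 164 CPM (104 to 278) to 919 CPM (514 to 1403), a log2 fold change of 2.44 ± 0.28. P2ry12, the ADP receptor, went from a median of 377 CPM (270 to 781) to 1649 CPM (1242 to 2144), a log2 fold change of 1.93 ± 0.26. In each of these genes every Day 1 mouse was above every Day 0 mouse.

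The chemokines stored in platelet granules followed the receptors. Pf4 had 224 to 602 CPM (median 295) on Day 0 and 1066 to 2039 CPM (median 1657) on Day 1, a log2 fold change of 2.19 ± 0.27 (adjusted p = 1.84e-05), and Ppbp rose by 2.11 ± 0.30. Tubb1, the beta tubulin of the platelet's marginal band, rose from a median of 314 CPM to 1899 CPM (2.30 ± 0.25), and Treml1, a receptor kept in the same granules, from 78.8 CPM to 524 CPM (2.45 ± 0.24). Sparc was the platelet-list gene that did not pass, at 0.0271 to 1.31 CPM on Day 0 and 0.717 to 3.13 CPM on Day 1 (adjusted p = 0.0669). Relative to vehicle, all 26 genes of the list passed the test of the difference with a positive sign, against 13.1% of all genes. The list's median change with vehicle was -0.56.

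Promoters of 3 of these receptors and chemokines are shown because they hold the 6-letter word AGATAA, or TTATCT on the other strand, the core of the sites bound by GATA factors. The word was searched on both strands in RefSeq promoters (GRCm38.p6, 250 bases before to 50 after the start), and it was present in 3672 of 32851 promoters (11.2%). Of the 22 platelet-list genes with an entry, 6 (27.3%) held it: Pf4, Clec1b, Gp6, F2rl3, F2rl2 and Gp5. A match is a description of the letters and not a site. The promoters are given 5′ to 3′ on the gene's strand with the word in capitals, Pf4 from chr5:90772185-90772484 (+), Gp6 from chr7:4397695-4397994 (-) and Gp5, with 2 matches, from chr16:30310732-30311031 (-).
Pf4: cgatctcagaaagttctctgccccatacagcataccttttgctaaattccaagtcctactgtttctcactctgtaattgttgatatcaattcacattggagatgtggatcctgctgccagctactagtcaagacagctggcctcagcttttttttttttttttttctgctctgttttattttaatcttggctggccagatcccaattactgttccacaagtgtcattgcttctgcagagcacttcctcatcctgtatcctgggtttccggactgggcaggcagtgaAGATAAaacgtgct
Gp6: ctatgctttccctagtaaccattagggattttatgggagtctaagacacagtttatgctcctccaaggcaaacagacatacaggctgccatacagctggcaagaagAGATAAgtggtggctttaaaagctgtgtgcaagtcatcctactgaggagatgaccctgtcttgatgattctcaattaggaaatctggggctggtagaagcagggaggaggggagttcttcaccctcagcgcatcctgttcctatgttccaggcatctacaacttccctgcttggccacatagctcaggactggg
Gp5: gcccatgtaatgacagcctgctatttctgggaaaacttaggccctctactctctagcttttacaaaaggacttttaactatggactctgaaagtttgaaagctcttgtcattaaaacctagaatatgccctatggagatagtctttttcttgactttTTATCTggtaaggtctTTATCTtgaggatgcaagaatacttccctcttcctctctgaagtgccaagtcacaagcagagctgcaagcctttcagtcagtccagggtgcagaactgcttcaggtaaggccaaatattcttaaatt

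Of 15 transcription factors of the erythroid and megakaryocyte lineages tested, 6 rose (Gata1, Nfe2, Tal1, Gfi1b, Fli1 and Foxo3) and none fell, with a median log2 fold change of 0.75 that turned to -0.23 on total counts, where 2 were higher and 3 lower. Gata1, which acts in both lineages, had 18.1 to 48.3 CPM (median 25.4) on Day 0 and 76.9 to 128 CPM (median 103) on Day 1, a log2 fold change of 1.85 ± 0.21 (adjusted p = 1.19e-05). Nfe2, needed for platelet release, rose from a median of 64.9 CPM to 266 CPM (1.81 ± 0.20), Tal1 from 42.1 CPM to 205 CPM (1.99 ± 0.22) and Gfi1b from 6.31 CPM to 33.0 CPM (2.02 ± 0.23). None of these 4 genes overlapped between the groups. Fli1, a megakaryocyte and lymphoid factor, rose by 1.11 ± 0.16 and Foxo3, active in maturing red cells, by 1.29 ± 0.22. Klf1, the erythroid factor that drives adult beta globin, had 3.03 to 7.20 CPM on Day 0 and 4.76 to 10.3 CPM on Day 1, so that the groups overlapped, and its log2 fold change of 0.72 (adjusted p = 0.021) missed the size threshold and was -0.23 on total counts. Gata2, expressed in megakaryocyte progenitors and basophils, rose from a median of 15.5 CPM (11.2 to 28.5) to 69.2 CPM (43.4 to 75.5), a log2 fold change of 1.84 ± 0.21.

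Haemoglobin genes took 10.3% to 13.8% of counts (median 11.0%) on Day 0 and 10.9% to 22.1% (median 16.9%) on Day 1, a mean difference of 4.72 percentage points (exact permutation test, adjusted p = 0.0357) with overlapping groups. Without mouse 46 the difference was 3.53 points and no longer passed. The paper's methods describe libraries depleted of globin RNA, whereas the labels name poly(A) selection. How evenly globin RNA was removed across libraries was not tested, and it bears on this share and on the globin values below. Of 10 haemoglobin genes tested, 4 rose and none fell, with a median log2 fold change of 1.35 (0.43 on total counts). The alpha globins Hba-a1 and Hba-a2 rose by 2.30 ± 0.39 and 2.42 ± 0.36. Hba-a1 ranged from 819 to 1931 CPM on Day 0 and from 3117 to 14020 CPM on Day 1. These adjacent paralogs are nearly identical and were counted from uniquely assigned reads, so that their separate levels are uncertain. Hbb-bs, an adult beta globin of the GRCm38 annotation, had 53680 to 138900 CPM on Day 0 and 115100 to 299400 CPM on Day 1. It did not pass (1.44 ± 0.77, adjusted p = 0.13), and the 2 groups overlapped. Whether Hbb-bs and Hbb-bt of GRCm38 match the beta globin genes of CD2F1 mice was not tested, so that their separate levels are uncertain too. Hbb-bt had a log2 fold change of 0.81 (-0.15 on total counts), while Hbq1a, a minor theta globin, rose by 1.33 ± 0.24. The embryonic globin Hbb-bh1 passed on 7 counts in all on Day 0 and 115 on Day 1, of which mouse 43 had the highest level at 2.57 CPM.

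Of 16 genes of haem synthesis and iron uptake, 5 rose and none fell, with a median log2 fold change of 0.86 that turned to -0.09 on total counts, where none was higher and 2 were lower. They were Alad (1.12 ± 0.20), Urod (1.01 ± 0.23) and Cpox (1.13 ± 0.26), 3 enzymes of the pathway, Abcb10, a mitochondrial transporter (1.34 ± 0.23), and Tfrc, the transferrin receptor (1.49 ± 0.31). Leaving out 1 mouse gave 3 (mouse 47) to 7 (mouse 43) genes higher. Alas2, the first and rate-limiting enzyme in red cells, had 21290 to 65880 CPM (median 34025) on Day 0 and 68740 to 137400 CPM (median 94840) on Day 1. Its groups did not overlap, but the log2 fold change of 1.41 ± 0.60 had an adjusted p of 0.0586.

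Red cell membrane genes rose for 6 of 18, the channels and blood group proteins Aqp1 (1.66 ± 0.24), Rhag (1.45 ± 0.27) and Ermap (1.47 ± 0.26) among them, and the list median of 0.60 was -0.35 on total counts, where none was higher and 1 lower. The anion exchanger Slc4a1, the most abundant protein of that membrane, had 2156 to 4378 CPM on Day 0 and 2276 to 4560 CPM on Day 1, with a log2 fold change of 0.13 ± 0.27 (adjusted p = 0.711; -0.82 on total counts). Of 16 genes of reticulocyte maturation, Ube2l6 (1.29 ± 0.41), Isca1 (1.07 ± 0.32) and Bsg (1.04 ± 0.22) rose, and the list median of 0.78 was -0.13 on total counts, where none was higher and 2 were lower. The 3, which were 18.8% of the list against 12.8% of all genes, became 0 without mouse 47, 1 without mouse 19 or 23 and 6 without mouse 22 or 46. With vehicle, all 4 red cell lists had negative medians. On the TMM scale the difference from vehicle passed with a positive sign for 7 of 10 haemoglobin, 11 of 16 haem, 14 of 18 membrane and 12 of 16 maturation genes. Over all genes 13.1% did so. On total counts the difference passed for 616 genes with a positive sign and 13491 with a negative one, and it was not taken by list.

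B cell genes fell. Of 21 tested, 18 were lower on Day 1 and none higher, with a median log2 fold change of -1.53 (-2.49 on total counts), and the count stayed at 18 with each mouse left out in turn. The surface immunoglobulin genes Ighm and Ighd fell by 1.19 ± 0.23 and 1.59 ± 0.24 on the log2 scale. Ighm had 258 to 394 CPM (median 340) on Day 0 and 69.0 to 220 CPM (median 147) on Day 1. Cd79a, which carries the signal of that receptor, had 75 to 118 CPM (median 97.8) on Day 0 and 20.2 to 64.0 CPM (median 41.1) on Day 1, a log2 fold change of -1.26 ± 0.23 (adjusted p = 0.000443). Ms4a1, encoding CD20, fell by 1.27 ± 0.22, Pax5, the factor that keeps B cell identity, by 1.69 ± 0.22 and Bank1, an adaptor of the receptor, by 1.53 ± 0.22. Every Day 1 mouse was below every Day 0 mouse in these genes. With vehicle the list median was 0.05 and the same 2 times did not give a called gene.

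T cell genes fell in the same range. Of 25 tested, 20 were lower and none higher, with a median of -1.65 (-2.57 on total counts) and a count of 15 (mouse 47) to 24 (mouse 22) with 1 mouse left out. Factors and receptors of naive T cells were among them. Lef1 had 46.2 to 65.6 CPM (median 57.9) on Day 0 and 5.90 to 26.0 CPM (median 14.6) on Day 1, a log2 fold change of -1.90 ± 0.28 (adjusted p = 9.21e-05). Ccr7, the lymph node homing receptor, fell by 1.86 ± 0.28, Il7r, a survival receptor, by 1.75 ± 0.22 and Tcf7 by 1.67 ± 0.26. Of the invariant chains of the T cell receptor complex, Cd3e fell by 1.65 ± 0.31, from a median of 57.9 CPM to 20.1 CPM, whereas Cd3d (log2 fold change -0.97) and Cd3g (-0.92) missed the size threshold. Bcl2, an inhibitor of apoptosis that lymphocytes depend on, went from a median of 55.1 CPM (47.3 to 60.9) to 21.7 CPM (9.64 to 27.8), a log2 fold change of -1.44 ± 0.21.

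Of 22 natural killer (NK) cell genes tested, edgeR on the TMM scale called 0 in either direction, 0 had an unadjusted p under 0.05 and DESeq2 called 0, with a median of 0.09 that turned to -0.88 on total counts, where 6 were called lower and none higher. With 1 mouse left out, at most 1 passed in either direction. Ncr1, the NK receptor NKp46, had 12.5 to 23.9 CPM on Day 0 and 5.90 to 50.3 CPM on Day 1, so that the Day 1 mice lay on both sides of Day 0. The summed CPM of the list was 150 to 271 on Day 0 and 53.0 to 509 on Day 1. In the even-numbered mice alone 8 of the list were higher, and in the odd-numbered mice alone 4 were lower.

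Genes of MHC class II presentation, which B cells and antigen-presenting myeloid cells use, fell for 8 of 10, with a median of -1.18 (-2.13 on total counts). The number lower was 6 without mouse 47 and 10 without mouse 46. In the odd-numbered mice alone it was 10, and in the even-numbered mice alone 4. Cd74, the invariant chain, had 576 to 857 CPM (median 707) on Day 0 and 137 to 500 CPM (median 309) on Day 1, a log2 fold change of -1.17 ± 0.25 (adjusted p = 0.00138). Ciita, the master regulator of the class, fell by 1.62 ± 0.25, H2-Ab1 by 1.19 ± 0.26 and H2-Eb1 by 1.06 ± 0.21. H2-Aa (-0.92) and H2-DMa (-0.77) missed the size threshold. In class I presentation, B2m, the light chain, rose from a median of 582 CPM (506 to 808) to 1637 CPM (1045 to 1735), a log2 fold change of 1.33 ± 0.19, while the peptide transporters Tap1 (-1.35 ± 0.33) and Tap2 (-1.40 ± 0.29) and the class I regulator Nlrc5 (-1.36 ± 0.36) fell. The share of class I genes lower was 21.4% and the share higher 7.14%, against 24.2% and 12.8% of all genes. The other 10 of 14 did not pass, among them the heavy chain gene H2-K1 at 0.10 (-0.88 on total counts).

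Of 19 mature neutrophil genes, 4 rose (21.1%, against 12.8% of all genes) and none fell, with a median of 0.46. On total counts the median was -0.50, with none higher and 6 lower, and the 4 became 2 without mouse 23, 46 or 48. They were S100a9 (1.07 ± 0.23), Retnlg (1.01 ± 0.17), Trem1, an activating receptor (1.24 ± 0.18), and Clec4d, a lectin receptor (1.29 ± 0.18). S100a8, the partner of S100a9, had a log2 fold change of 0.77 (-0.18 on total counts). Of 15 neutrophil granule genes, Ctsg and Chil3 fell (13.3%, against 24.2% of all genes). Ctsg was at 27 counts over all Day 0 mice and 0 over all Day 1 mice, and no fold is given. Chil3 fell by 1.5 ± 0.33. Of 17 monocyte genes, Spn (-1.05 ± 0.26) and Ms4a6c (-1.05 ± 0.38) fell (11.8%, against 24.2% of all genes), with a list median of -0.23 against -0.31 over all genes. None fell without mouse 23, 45 or 47, the odd-numbered mice alone gave 4 and the even-numbered mice 0, and on total counts 8 were lower. Of 13 basophil and eosinophil genes, Gata2 rose (7.69%), whereas the mast cell and basophil genes Cpa3 (-1.07 ± 0.27) and Cd200r3 (-1.23 ± 0.29) fell (15.4%, against 24.2% of all genes). The number lower was 1 without mouse 20, 21 or 47.

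**Figure D3:**
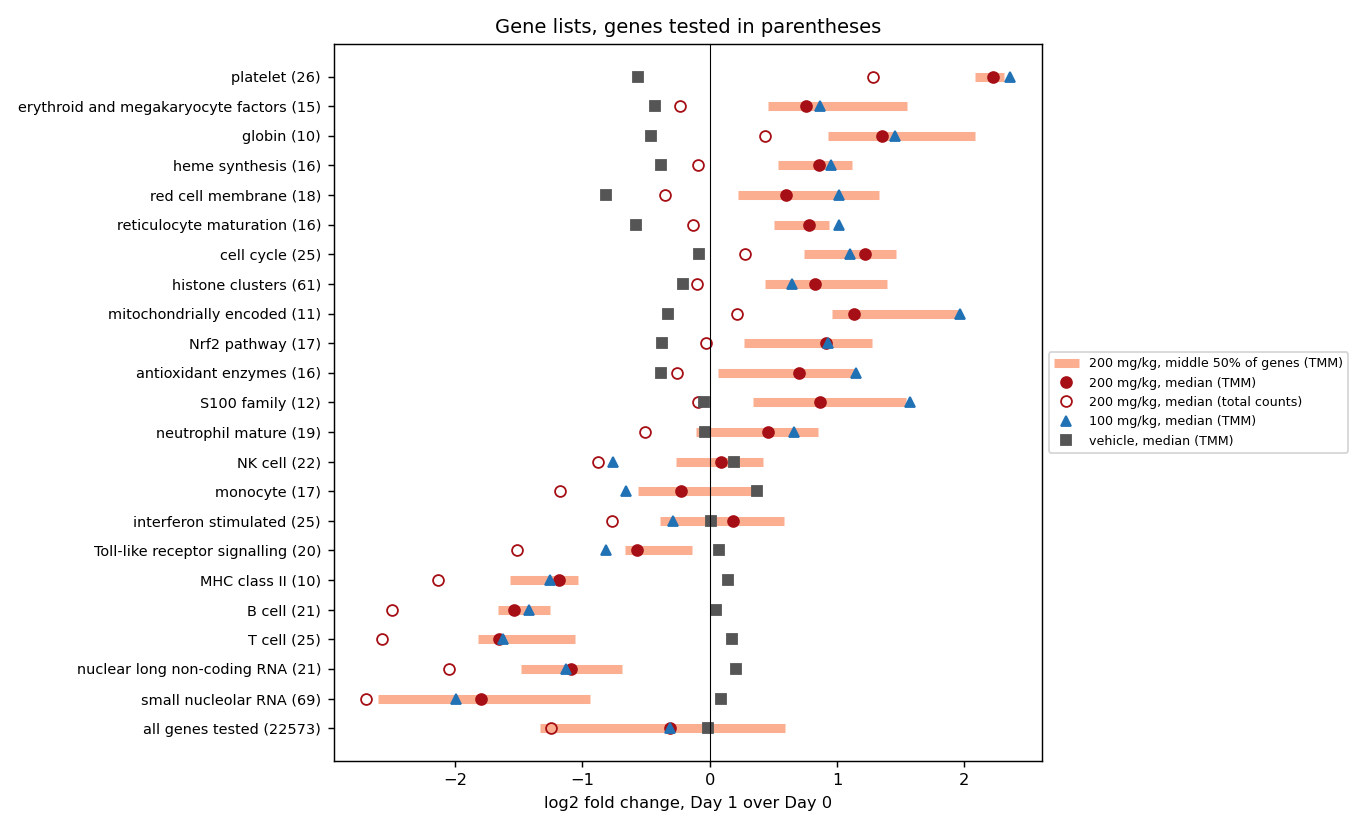
Median log2 fold change, Day 1 over Day 0 (x axis), of 22 gene lists and of all genes tested, with filled circles for 200 mg/kg on the TMM scale, bars for the middle 50% of its genes, open circles for 200 mg/kg on total counts, triangles for 100 mg/kg and squares for vehicle. Of the filled circles, the platelet median of 2.22 lies highest and the small nucleolar RNA median of -1.80 lowest, the vehicle median of all genes is -0.01, and total counts shift each list to the left.

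BIO 300 acts on estrogen receptor beta, and the receptor genes themselves were scarce in blood. Esr2, encoding that receptor, was covered by 2 counts on Day 0 and 10 on Day 1 over 6 mice each, and passed the test with overlapping groups (adjusted p = 0.0338). Esr1 had 1.16 to 2.33 CPM on Day 0 and 0.637 to 1.55 CPM on Day 1 (log2 fold change -0.83, adjusted p = 0.0205). Of 18 genes of estrogen receptor signalling, 5 were higher (27.8%) and 3 lower (16.7%), against 12.8% and 24.2% of all genes. The list median of 0.19 was -0.78 on total counts, where none was higher and 7 were lower. With 1 mouse left out, the number higher went down to 2 (mouse 23 or 45) or 3 (mouse 19, 20, 22, 44 or 47), and the number lower was 5 without mouse 43. The higher ones were Esr2, Ctsd, a lysosomal protease and classical estrogen target (1.83 ± 0.18), the coactivator Ncoa1 (1.37 ± 0.19), Ccnd1 (1.06 ± 0.20) and Pgr, which had 5 and 14 counts. Among the lower were Bcl2 and Myc (-1.19 ± 0.18). Of 8 tested genes of the aryl hydrocarbon receptor, which binds many flavonoids, edgeR and DESeq2 each called 0, while 3 had an unadjusted p under 0.05, and the median was -0.21.

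Nrf2 (Nfe2l2) is the factor that induces glutathione and NADPH enzymes, and Keap1 marks it for degradation. Of 17 genes of that pathway, 6 rose and none fell, with a median of 0.91 that was -0.03 on total counts, where 1 was higher and 1 lower. Srxn1, which repairs oxidized peroxiredoxins, had 31.8 to 87.4 CPM (median 43.3) on Day 0 and 181 to 267 CPM (median 259) on Day 1, a log2 fold change of 2.28 ± 0.22 (adjusted p = 5.32e-06). Gsr, glutathione reductase, rose by 1.91 ± 0.19, Taldo1, of the pentose phosphate pathway, by 1.27 ± 0.22 and Mafg, the Nrf2 partner, by 1.04 ± 0.16. Nfe2l2 itself was at 0.58 (-0.41 on total counts), Keap1 at -0.30 and Nqo1, its textbook target, at 0.27 (-0.68 on total counts), all inside the size threshold. Of 16 antioxidant enzymes, 5 rose and none fell (median 0.70, and on total counts -0.25 with 1 higher and 2 lower): Gpx4 (1.98 ± 0.19), which reduces lipid peroxides, Prdx6 (1.92 ± 0.18), Prdx4 (1.23 ± 0.18), Prdx5 (1.22 ± 0.10) and Sod1 (1.11 ± 0.15). Gpx4 went from a median of 72.9 CPM (59.6 to 137) to 324 CPM (265 to 379), without overlap. Platelets and reticulocytes also express several of these genes, and the part of either cell type was not tested.

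Of 14 glucocorticoid-responsive genes, edgeR and DESeq2 each called 0, while 6 had an unadjusted p under 0.05, with a median of 0.08 (-0.86 on total counts, where 5 were lower). In the immediate early list Ier3 alone of 17 rose (5.88%, against 12.8% of all genes). The number higher was 0 without mouse 23, 24, 45 or 48, and on total counts 11 were lower. Of 13 heat shock genes, Bag3 (1.65 ± 0.22) and Hspa1b, on 43 and 104 counts, rose (15.4%, against 12.8% of all genes). The heat shock median of 0.33 was -0.63 on total counts, where none was higher and 3 were lower. Of 19 clock genes, the activator Npas2 rose (1.51 ± 0.28) and its relative Arntl (-1.28 ± 0.25), the repressor Cry2 (-1.10 ± 0.27) and Ciart, on 89 and 7 counts, fell, and without mouse 43 the number lower was 8. The share of clock genes higher was 5.26% and the share lower 15.8%, against 12.8% and 24.2% of all genes. On total counts 13 clock genes were lower.

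Of 20 genes of Toll-like receptor signalling, the receptors Tlr1 (-1.66 ± 0.31), Tlr6 (-1.39 ± 0.18) and Tlr9 (-1.82 ± 0.33) fell and none rose. The share lower was 15%, against 24.2% of all genes, with a list median of -0.57 (-1.51 on total counts, where 15 were lower). Tlr6 had 8.99 to 11.0 CPM on Day 0 and 1.99 to 5.28 CPM on Day 1, without overlap. Of 25 interferon-stimulated genes, Ifit2 rose from a median of 30.6 CPM (24.3 to 51.5) to 117 CPM (79.8 to 132), a log2 fold change of 1.75 ± 0.19, whereas Oas2 (-1.41 ± 0.41), Mx1 (-1.14 ± 0.42) and the sensor Ddx58 (-1.09 ± 0.24) fell. The share higher was 4% and the share lower 12%, against 12.8% and 24.2% of all genes. The number lower was 1 without mouse 47, and on total counts it was 9 with none higher. Of 12 genes of interleukin 1 and the inflammasome, Il1a rose (1.5 ± 0.35) and the adaptor Pycard fell by 1.01 ± 0.27. The share was 8.33% in each direction, below the shares of all genes. The number lower was 0 without mouse 19, 23, 45 or 47 and 2 without mouse 46, and the number higher was 2 without mouse 21 or 43. Of 18 p53 target genes, Phlda3 (2.26 ± 0.22), Bbc3 (1.03 ± 0.13) and Eda2r, on 20 and 41 counts, rose, and Gdf15 fell, on 84 and 6 counts. The share higher was 16.7% and the share lower 5.56%, against 12.8% and 24.2% of all genes. The number higher was 1 without mouse 44 or 48, and the number lower was 2 without mouse 22 or 43. On total counts 1 was higher and 6 were lower, with a median of -0.47 in place of 0.50.

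Of 12 tested genes of the S100 family, small calcium-binding proteins, 4 rose and 1 fell, while 2 rose without mouse 23 and on total counts 1 was higher and 1 lower. S100a10 had 89.0 to 169 CPM (median 100.3) on Day 0 and 329 to 494 CPM (median 394) on Day 1, a log2 fold change of 1.86 ± 0.18 (adjusted p = 5.41e-06), and S100a1 rose by 2.03 ± 0.23. The groups did not overlap for either gene. S100a9 also rose, as given above, and S100a2 passed on 1 and 13 counts. S100g fell, on 23 and 1 counts. S100b was covered by 22 counts on Day 0 and 18 on Day 1, with an adjusted p of 0.964. Among 14 receptors of blood cells, 4 rose, among them Tfrc, given above, Epor (1.79 ± 0.25), the erythropoietin receptor, and Kit (1.45 ± 0.36), the stem cell factor receptor. The 4 that fell were Il7r, Il2rg (-1.41 ± 0.26), the common gamma chain, Il6ra (-1.24 ± 0.21) and Flt3 (-1.16 ± 0.32). The share of these receptors was 28.6% in each direction, against 12.8% higher and 24.2% lower of all genes. Their median of -0.17 was -1.12 on total counts, where 1 was higher and 10 were lower.

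Cell cycle genes rose for 14 of 25 and fell for none, with a median of 1.22, but on total counts none was called and the median was 0.28. The proliferation marker Mki67 had 151 to 365 CPM (median 202) on Day 0 and 346 to 768 CPM (median 516) on Day 1, with an overlap and a log2 fold change of 1.22 ± 0.24 (adjusted p = 0.000896). Top2a, which untangles replicated DNA, rose by 1.62 ± 0.23, Mcm3, of the replicative helicase, by 1.54 ± 0.24 and the spindle motor Kif11 by 1.57 ± 0.23. Histone genes rose for 24 of 61, with a median of 0.83, and Hist2h2ab fell. Of the 12 fits that leave out 1 mouse, those without mouse 22, 44 or 46 called that fall and the other 9 did not, and on total counts 2 were higher and 3 lower, with a median of -0.10. Hist1h1c had 136 to 279 CPM on Day 0 and 472 to 682 CPM on Day 1 (1.73 ± 0.18), Hist1h2bc rose by 1.88 ± 0.21 and Hist1h4i by 2.09 ± 0.21.

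Ribosomal protein genes depended on the scale. Of 86 tested, 7 rose (8.14%, against 12.8% of all genes) and none fell on the TMM scale, with a median of 0.28. The ribosomal protein share of counts went from 1.28% ± 0.161 to 1.10% ± 0.0930 (SD, n = 6 each, exact permutation test, adjusted p = 0.0433). On total counts the median was -0.70 with 14 lower. Rpl41 (1.85 ± 0.29), Rplp1 (1.35 ± 0.20) and Rplp0 (1.29 ± 0.25) were among those that rose, and without mouse 43 the number was 11. Of 38 proteasome genes, Psmd11 (1.25 ± 0.12) and Psmb5 (1.31 ± 0.15) rose (5.26%, against 12.8% of all genes), with a median of -0.07. Without mouse 46, 4 proteasome genes rose, and on total counts 20 were lower. Nuclear genes of oxidative phosphorylation rose for 11 of 77 (14.3%, against 12.8% of all genes) and fell for 1, Ndufb2 (-1.02 ± 0.21), which lost the call without mouse 21, 23, 44, 45, 46 or 47, with a list median of 0.27. On total counts none was higher and 19 were lower, with a median of -0.70. Atp5e, a small subunit of ATP synthase, rose by 1.91 ± 0.20. Genes of the mitochondrial genome rose for 7 of 11, with a median of 1.13 (0.21 on total counts, where 3 were higher), and took 0.456% ± 0.119 of counts on Day 0 and 0.611% ± 0.0825 on Day 1 (adjusted p = 0.0364, with overlap). mt-Co1, a subunit of cytochrome c oxidase, had 1320 to 3437 CPM on Day 0 and 4568 to 7519 CPM on Day 1 (1.48 ± 0.29), and mt-Cytb rose by 1.11 ± 0.26.

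Non-coding RNA classes made up much of the lower side. By gene type of the GENCODE M21 annotation, protein-coding genes were balanced on the TMM scale. Of 15294, 2271 were higher and 2183 lower, with a median of -0.08. That balance follows at least in part from the scale, because TMM centres the bulk of well-counted genes near 0. On total counts 481 protein-coding genes were higher and 6891 lower, with a median of -1.02. Among the 218 spliceosomal small nuclear RNA (snRNA) genes 137 were lower (62.8%, against 24.2% of all genes) and 2 higher. Their median was -2.91 (-3.78 on total counts). Small nucleolar RNA (snoRNA) genes were lower for 125 of 232 (median -2.19), sense intronic transcripts for 98 of 151 (median -2.47) and antisense transcripts for 606 of 1247 (median -1.64). Genes of the type TEC, loci to be experimentally checked, were lower for 788 of 1171 (median -2.45). Many of these genes had few counts, and whether counting used the strand was not stated, so that reads of an antisense or intronic gene and of its host cannot be told apart. Gene segments of the rearranged receptors were lower too, with 114 of 193 immunoglobulin V genes (median -1.39) and 51 of 67 T cell receptor J genes (median -3.48).

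**Figure D4:**
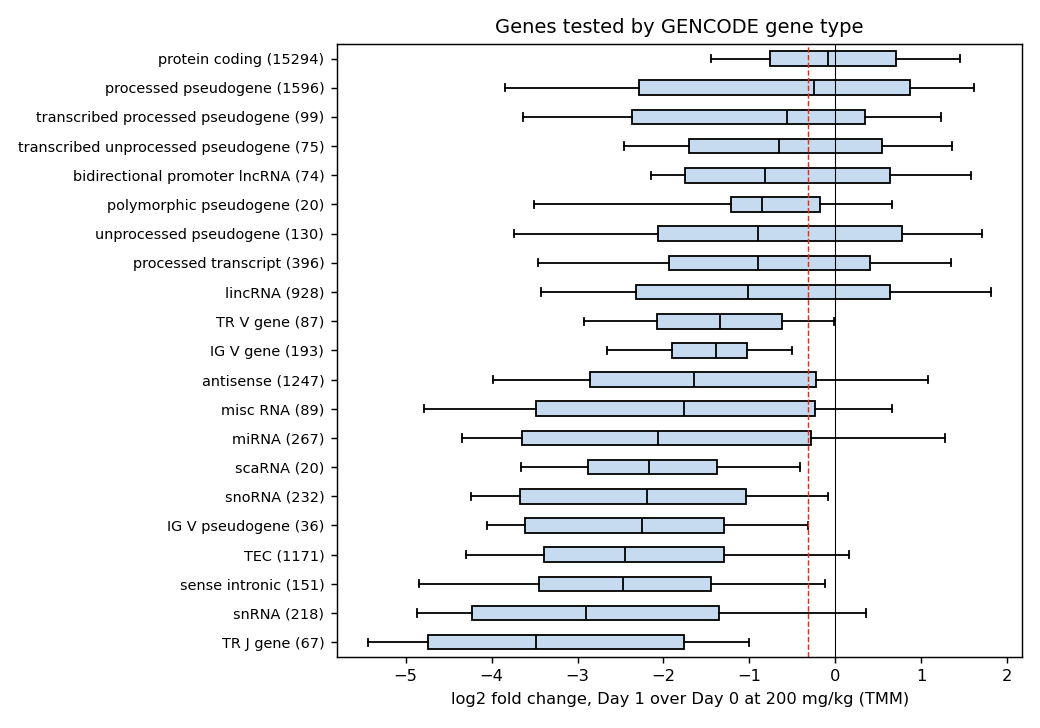
Log2 fold change, Day 1 over Day 0 at 200 mg/kg on the TMM scale (x axis), of the genes tested in each GENCODE gene type with its number of genes; boxes span the middle 50%, lines inside mark medians, whiskers run from the 10th to the 90th percentile, and the red dashed line is the median of all genes. The protein-coding median of -0.08 (-1.02 on total counts, not drawn) is the closest to 0, and medians of snRNA (-2.91) and T cell receptor J genes (-3.48) are the lowest.

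Small nucleolar and Cajal body RNAs, which guide the modification of ribosomal and spliceosomal RNA, were also followed as a list of 150 genes. Of 69 tested, 30 fell and none rose, with a median of -1.80 (-2.70 on total counts). Their share of counts was 0.0148% to 0.0326% on Day 0 and 0.00430% to 0.00728% on Day 1, without overlap (exact permutation test, adjusted p = 0.00433), against vehicle means of 0.0251% ± 0.00667 on Day 0 and 0.0378% ± 0.0115 on Day 1 (SD, n = 6 each). Scarna10 had 68.0 to 90.1 CPM (median 76.5) on Day 0 and 5.03 to 23.7 CPM (median 15.3) on Day 1, a log2 fold change of -2.37 ± 0.32 (adjusted p = 3.63e-05), and Scarna2 fell by 1.80 ± 0.21. Scarna13 went the other way without passing, at 0.90 (-0.11 on total counts). The study's methods describe libraries of total RNA depleted of ribosomal and globin RNA and the sample labels name poly(A) selection, which bears on how RNAs without a poly(A) tail were captured.

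Of 11 structural RNAs tested, 3 fell (27.3%, against 24.2% of all genes) and none rose: Rn7sk, Rmrp and Rprl2. Rn7sk, the 7SK RNA that holds the elongation factor P-TEFb inactive, had 2952 to 3488 CPM (median 3202) on Day 0 and 346 to 906 CPM (median 666) on Day 1, a log2 fold change of -2.26 ± 0.24 (adjusted p = 6.9e-06). Rmrp, the RNA of the endonuclease RNase MRP, had 151 to 221 CPM (median 177) on Day 0 and 25.6 to 55.3 CPM (median 44.1) on Day 1, a log2 fold change of -2.09 ± 0.19. Neither gene overlapped between the groups, and Rprl2 fell by 1.12 ± 0.15. At 100 mg/kg the log2 fold changes were -1.26, -1.03 and 0.24 for Rn7sk, Rmrp and Rprl2. The first 2 are shown as the structural RNAs whose values are given in full, with GENCODE M21 transcripts 5′ to 3′ from chr9:78175334-78175633 (-), the first 300 of 331 bases of Rn7sk, and chr4:43492788-43493058 (-), the whole of Rmrp, in GRCm38, all in the same case because no stretch is singled out.
Rn7sk: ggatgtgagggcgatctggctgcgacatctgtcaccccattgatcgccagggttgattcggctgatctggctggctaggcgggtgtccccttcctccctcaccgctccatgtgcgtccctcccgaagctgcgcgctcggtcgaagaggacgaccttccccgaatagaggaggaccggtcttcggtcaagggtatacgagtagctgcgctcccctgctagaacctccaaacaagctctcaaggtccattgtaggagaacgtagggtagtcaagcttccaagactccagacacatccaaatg
Rmrp: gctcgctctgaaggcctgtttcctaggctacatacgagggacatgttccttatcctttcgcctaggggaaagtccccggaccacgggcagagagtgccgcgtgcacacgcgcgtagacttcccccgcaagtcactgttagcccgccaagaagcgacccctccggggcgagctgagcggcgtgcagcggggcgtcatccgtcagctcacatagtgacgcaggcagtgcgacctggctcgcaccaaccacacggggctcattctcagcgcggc

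Of 21 long non-coding RNAs, most of them nuclear, 10 fell and 2 rose (0 without mouse 47 and 1 without mouse 20, 22 or 45), with a median of -1.09. Neat1, the scaffold of paraspeckles, fell by 1.09 ± 0.18 and Kcnq1ot1, an imprinted transcript, by 1.27 ± 0.12. Malat1 had 1635 to 2923 CPM (median 2245) on Day 0 and 1060 to 1604 CPM (median 1376) on Day 1, without overlap but with a log2 fold change of -0.72 inside the size threshold. Of the 10, 7 were snoRNA host genes of the Snhg series. Gas5, which also hosts several snoRNAs, rose by 1.02 ± 0.15.

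The 2 neighbouring genes Gm26917 (chr17:39843013-39846341, GRCm38) and Gm42418 (chr17:39846958-39848788), both of GENCODE type lincRNA, went in opposite directions. The type is that of the annotation. Whether reads of ribosomal RNA were counted under these 2 genes, or under Gm24245, Gm23935 and Gm24270 below, was not tested. How the depletion of ribosomal RNA varied between libraries was not tested either. Gm26917 took 2.28% to 7.94% of all counts (median 4.85%) on Day 0 and 0.0562% to 1.46% (median 0.165%) on Day 1, without overlap, and its log2 fold change was -2.74 ± 0.65 (adjusted p = 0.00301). Mouse 43 was the highest of the Day 1 mice, at 16420 CPM against a median of 2449 CPM. Gm42418 rose from a median of 20615 CPM (16740 to 29370) to 59490 CPM (41830 to 144200), a log2 fold change of 1.74 ± 0.55 (adjusted p = 0.0156). Gm24245, a short gene of GENCODE type miRNA, rose from a median of 3.19 CPM (2.18 to 7.20) to 19.4 CPM (12.3 to 29.2), a log2 fold change of 2.46 ± 0.29. Its transcript of 57 bases, shown because it is the same in 3 genes, is identical to those of Gm23935 (1.77 ± 0.35) and Gm24270 (1.68 ± 0.34). The deposited counts list the 3 genes separately, with Day 0 means of 3.65 CPM for Gm24245, 3670 CPM for Gm23935 and 84.4 CPM for Gm24270, and how reads of the shared bases were divided is not given in the sources used here (Gm24245 lies at chr4:139338304-139338360 on the + strand of GRCm38).
Gm24245: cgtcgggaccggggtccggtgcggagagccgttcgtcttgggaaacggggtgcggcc

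Among called genes whose mean reached 10 CPM in 1 of the groups and whose groups did not overlap, the 10 largest rises were Syt13, Cyp2b10, Maged2, Disp3, Map1a, Itga2b, Tpm2, Gm24245, Treml1 and Vwf, between 2.44 and 2.58 on the log2 scale. Syt13, of the synaptotagmin family of membrane trafficking proteins, had 1.75 to 4.85 CPM (median 2.84) on Day 0 and 14.4 to 20.2 CPM (median 18.6) on Day 1. Maged2 had 11.8 to 31.4 CPM (median 15.7) and 81.4 to 118 CPM (median 110.2), respectively. Cyp2b10, a cytochrome P450 that the constitutive androstane receptor induces in liver, had 2.48 to 7.53 CPM and 14.5 to 32.4 CPM. The 10 largest falls were non-coding genes, between -2.67 and -3.48: Gm42870, A130071D04Rik, F730311O21Rik, Gm38244, Gm43197, C230096K16Rik, Gm26917, 2010016I18Rik, Gm15675 and BE692007. Gm42870 had 14.8 to 24.9 CPM (median 21.6) on Day 0 and 0.478 to 3.78 CPM (median 1.49) on Day 1, a log2 fold change of -3.48 ± 0.36 (adjusted p = 6.65e-06).

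Markers of cells not expected in blood were examined as lists. Of 16 hepatocyte genes edgeR and DESeq2 each called 0, and 0 had an unadjusted p under 0.05, but the summed CPM was 1833 in mouse 21, 1151 in mouse 43 and 92.1 in mouse 45, and 1.04 to 5.64 in the other 9 mice. Without mouse 21 all 16 were called higher. Of 8 adipocyte genes edgeR and DESeq2 each called 0, with 1 at an unadjusted p under 0.05, and the summed CPM was 50.4 in mouse 20 and 35.8 in mouse 22 of Day 0, 57.4 in mouse 43 and 49.1 in mouse 46 of Day 1, and at most 11.9 in the other 8 mice. Of 8 endothelial genes, Plvap (2.44 ± 0.19), the vascular endothelial growth factor receptor Kdr (1.93 ± 0.25), Tek and Emcn rose, the last 2 on 34 and 84 and on 13 and 31 counts. Plvap had 1.03 to 1.96 CPM on Day 0 and 5.85 to 9.17 CPM on Day 1. The summed CPM of the endothelial list was 5.74 to 11.4 on Day 0 and 14.0 to 24.7 on Day 1. Of 5 fibroblast genes, Col1a1, Col1a2 and Col3a1 rose, on 17 and 66, 42 and 107, and 47 and 156 counts. With 1 mouse left out, 2 to 4 fibroblast genes were higher. At 100 mg/kg, 4 endothelial and 0 fibroblast genes were called higher, and with vehicle the list medians were -1.15 and -2.27, respectively. On total counts 1 endothelial gene was higher and 1 lower, and 2 fibroblast genes were higher. Cela2a of 3 pancreas genes rose on 12 and 31 counts, and Cnn1 and Tagln of 5 smooth muscle genes on 72 and 75 and on 77 and 108 counts, 1 of them without mouse 19, 20, 21 or 48 and 3 of the list without mouse 22. The shares higher were 50% of the endothelial, 60% of the fibroblast, 33.3% of the pancreas and 40% of the smooth muscle genes, against 12.8% of all genes. The part of such cells in the other results was not tested.

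The 200 mg/kg change was set beside that at 100 mg/kg, in other mice, where 10065 of 23097 genes (43.6%) were called, 3571 higher (15.5%) and 6494 lower (28.1%). Genes called at both doses with the same direction numbered 7011, which was 83.9% of those called at 200 mg/kg and 69.7% of those at 100 mg/kg. Opposite directions were called for 2 genes, Scin (2.04 here against -2.19 in the 100 mg/kg mice) and Gm12059 (-3.68 against 1.83). Across 22040 genes tested at both doses, Pearson's r of the log2 fold changes was 0.82, as a description over genes, which are not independent replicates. In the test of the difference between the doses edgeR called 0 of 24958 genes (0%), with 1536 at an unadjusted p under 0.05 and a smallest adjusted p of 0.266, and DESeq2 called 0. Without mouse 43 or mouse 46, 1 gene passed, Galnt6os and Celf3, respectively.

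**Figure D5:**
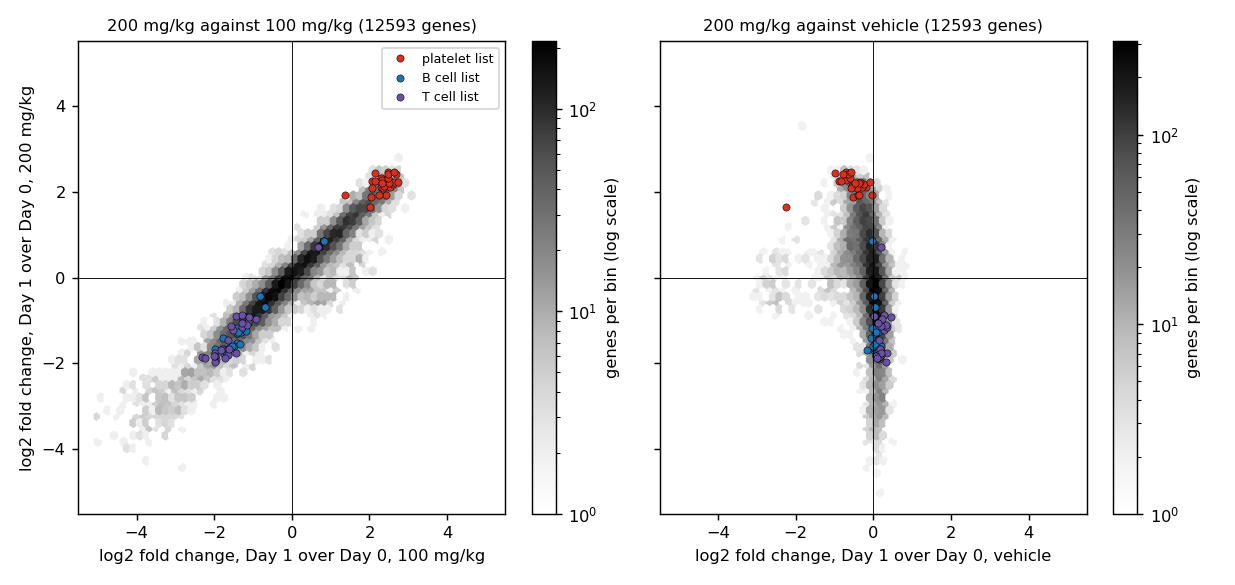
Log2 fold change, Day 1 over Day 0 at 200 mg/kg (y axis), against that at 100 mg/kg (left) and with vehicle (right) on the x axis, for 12593 genes whose mean reached 1 CPM in 1 of the 200 mg/kg groups, with grey for the number of genes per bin on a log scale and coloured points for 3 lists. With 100 mg/kg, 92.0% of these genes have the same sign and the points follow a diagonal, whereas with vehicle they form a column around 0.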

How the data were processed

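Per the paper's methods and the labels, reads were trimmed (Trimmomatic v.0.36), mapped to the GRCm38 genome (STAR v.2.5.2b) and assigned to genes (Subread v.1.5.2) by the authors. The deposited tables hold these integer counts for 49315 genes, without normalization. The annotation release, strand setting and any batch are not given in the sources used here, and the paper's methods (total RNA depleted of ribosomal and globin RNA) and the labels (poly(A) selection) name different library preparations. The authors' tables of DESeq2 comparisons were not used.

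Gene names and types came from GENCODE M21, which paired 49056 gene identifiers. Counts of mice that appeared in 2 tables were identical, and within the 200 mg/kg groups the smallest chi-square statistic per gene between mice was 12.0, so that no library was a copy of another. Genes with at least 10 counts summed over the mice of a comparison were fitted with edgeR 4.0.16 (TMM, estimateDisp, glmQLFit, glmQLFTest) and limma 3.58.1 in R 4.3.3, with adjustment over all genes tested. A call needed an adjusted p below 0.05 and a log2 fold change beyond 1 in either direction. Differences between doses were contrasts in fits of 24 mice. The standard error is the absolute log2 fold change divided by the square root of F. Shares of counts were compared by an exact permutation test over mice. The scripts were tested on simulated counts. Alternatives were DESeq2 1.42.0 (Wald test), other scalings and filters, animal-number parity and leaving out each mouse. Leaving mice out for the gene lists and detection at equal depth were added after seeing the data.

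The members and the 44 gene lists were chosen with earlier results of these data known. Genes were named by a rule: the 10 largest called changes in each direction (mean of at least 10 CPM in 1 group, no overlap), and of each list the first 3 members, up to 4 further called members with the highest mean CPM and, in lists of 12 or fewer, every member, beside Gm26917, Alb and S100b. Some genes that the rule picks are not reported here. Gp5, Gp6, Sparc, Flt3, Ccnd1, Pgr, Myc, Gm23935, Gm24270, Ndufb2, Hist2h2ab, Clec1b, F2rl2, F2rl3, Galnt6os, Celf3, Scin and Gm12059 were named after their values or sequences were seen. P-values of the fits weigh a difference between groups against the spread between mice, and those of the permutation test count splits of the mice. Neither can separate the day from a batch.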

Additional observations from a re-analysis of the deposited data

Results flagged for a closer look

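In 394 groups of 6 mice examined, 55 had 1 mouse that stood apart from the other 5 by Dixon's test at its 95% critical value, and chance alone marks about 1 in 20 groups. Most of the 55 were in mouse 22 on Day 0 and mouse 43 on Day 1, so that they are not independent of each other.

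Mouse 22 was the highest Day 0 mouse for red cell and haem genes, at 68.7 CPM of Abcb10, 180.4 of Aqp1, 34.5 of Cpox, 5.93 of Epor, 176 of Ermap, 556.5 of Foxo3, 138900 of Hbb-bs, 7.20 of Klf1, 80.5 of Rhag, 511 of Tfrc and 18190 of Ube2l6, with a haemoglobin share of 13.8% of counts. It was also the highest for the lineage factors and platelet genes Gata1 (48.3 CPM), Gfi1b (13.5), Tal1 (85.8), Gp6 (170.5) and Treml1 (166). The other genes were Rpl41 (1183 CPM), Rplp0 (1005), Rplp1 (496), Mcm3 (148.7), Top2a (82.4), Gpx4 (136.5), Prdx6 (65.6), S100a10 (169), Ifit2 (51.5), Cyp2b10 (7.53), Gm24245 (7.20), Col1a2 (0.373) and Eda2r (0.298). Mouse 22 had the lowest TMM factor of Day 0, 0.941, and without it the platelet list had 25 genes higher, as with it.

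Mouse 43 on Day 1 was the highest for Gm26917 (16420 CPM, 1.46% of counts), 2010016I18Rik (7.72 CPM), C230096K16Rik (3.07), Gm38244 (3.39), Neat1 (26.0), Ndufb2 (3.33), Esr1 (1.55), Gdf15 (0.176), S100a2 (0.351), S100b (0.497), Hbb-bh1 (2.57) and Alb (348), and the lowest for B2m (1045) and Nfe2l2 (21.9). Mouse 21 on Day 0 had 640 CPM of Alb, which encodes the liver protein albumin.

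The remaining mice that stood apart were mouse 46 for Hba-a1 (14020 CPM), S100g (0.0714) and Pgr (0 CPM, the lowest), mouse 47 for Aqp1 (474) and Tfrc (1379) and mouse 48 for Ciart (0.225), all on Day 1, and mouse 19 for Mx1 (3.69) and S100a2 (0.0271) and mouse 20 for Col1a1 (0.261) on Day 0.

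The change from Day 0 to Day 1 differed between 200 mg/kg and vehicle for 9437 genes by the test of the difference, and for 169 of 190 genes examined by name. In all 169 the difference had the sign of the 200 mg/kg change. That sign was largely set by the choice of genes, because 166 of the 190 were called at 200 mg/kg. The difference also uses the same 200 mg/kg mice, and the vehicle change that it subtracts had 0 called genes. The shared sign is therefore not a separate result.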

How the results depend on the processing

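The count of 8357 called genes was 8096 with DESeq2's Wald test, 8491 with its size factors, 8451 with upper-quartile scaling, 8408 with a filter of 1 count, 8421 with odd or even animal number as a term and 9381 in a fit of 24 mice. It was 12026 on total counts, where 625 were higher and 11401 lower in place of 2885 and 5472. Fewer genes were tested under filterByExpr, which gave 5267 of 14060 (2442 higher and 2825 lower), and fewer mice entered the fits of the odd-numbered (6735, of which 42.4% were higher against 34.5%) and the even-numbered mice (5465). Genes called in the same direction as in the fit reported numbered 6097 on total counts, 7743 with DESeq2, 5124 under filterByExpr, 5490 in the odd-numbered and 4984 in the even-numbered mice, with none in the opposite direction. Leaving out 1 mouse gave 7334 (mouse 23) to 9253 (mouse 43). At 100 mg/kg filterByExpr gave 6046 and leaving out a mouse 8992 to 10384, and total counts split the calls into 955 higher and 12894 lower. For the difference from vehicle, total counts gave 616 higher and 13491 lower, filterByExpr 7556 calls and leaving out a mouse 8672 to 9862. DESeq2 called 37 genes with vehicle, and between the doses leaving out a mouse gave 0 to 1.

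The mean difference in share of counts, in percentage points, ranged with 1 mouse left out from 3.53 to 5.77 for haemoglobin genes, from -0.220 to -0.146 for ribosomal protein genes and from 0.133 to 0.197 for mitochondrially encoded genes, and each missed the threshold in some of these fits. The platelet, small nucleolar and Gm26917 shares passed in all of them.

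On total counts the log2 fold change turned for genes not called: H2-K1 (-0.88), Hbb-bt (-0.15), Klf1 (-0.23), Ncr1 (-0.61), Nfe2l2 (-0.41), Nqo1 (-0.68), S100a8 (-0.18), S100b (-0.59), Scarna13 (-0.11) and Slc4a1 (-0.82). Medians that turned were those of the adipocyte (-0.0816), antioxidant (-0.25), erythroid and megakaryocyte factor (-0.23), estrogen receptor (-0.78), glucocorticoid (-0.86), heat shock (-0.63), haem (-0.0917), histone (-0.10), interferon (-0.77), neutrophil granule (-0.78), mature neutrophil (-0.50), NK cell (-0.88), Nrf2 (-0.0273), oxidative phosphorylation (-0.70), p53 (-0.47), red cell membrane (-0.35), reticulocyte (-0.13), ribosomal protein (-0.70) and S100 (-0.0919) lists. With 1 mouse left out, Alb ranged from -4.42 (mouse 43) to 12.0 (mouse 21), H2-K1 from -0.0149 (mouse 46; also below 0 without mouse 22) to 0.18 (mouse 47), Ncr1 from -0.0904 (mouse 46) to 0.54 (mouse 47) and S100b from -2.79 (mouse 43) to 0.95 (mouse 20), and S100b was -0.24 with DESeq2. Of the 166 called genes named, 2 lost the call with DESeq2, 2 with upper-quartile scaling, 0 with DESeq2's size factors and 31 in at least 1 fit without a mouse, and none turned. The causes were not tested.

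No paired analysis was possible because each animal number occurs once and the groups share none. Genes with few counts, named with their counts, limit what depth can show.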
